A study of Mus musculus with 12 samples.

Results

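The genotype by ethanol interaction was measured as the ethanol difference in TLR4-KO mice (TLR4-KO + EtOH minus TLR4-KO) less the ethanol difference in WT mice (WT + EtOH minus WT). All 12 small RNA libraries of the series and all 589 miRNA precursors of the deposited table entered the contrast, so that no library and no precursor was left out. A positive interaction difference means that the precursor was higher with ethanol in TLR4-KO mice than it was with ethanol in WT mice, relative to the water group of each genotype. The libraries came from the cortex of female C57BL/6J mice that were 7 weeks old at the start and drank water or 10% (v/v) ethanol for 5 months. The 4 groups, with 3 libraries each, were WT and TLR4-KO (mice without functional Tlr4) on water, and both genotypes on ethanol (WT + EtOH and TLR4-KO + EtOH). Each library was a pool of 3 mice, so that the spread given here is between pools and the values of single mice are not known. WT and TLR4-KO mice came from different sources and were not stated to be littermates, so that Tlr4 and other differences between the colonies cannot be told apart. Small RNA libraries do not read the Tlr4 mRNA, and the genotype labels were therefore not checked.

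TLR4 is a receptor of the innate immune system that binds bacterial lipopolysaccharide and has been reported to respond to ethanol in glia. Once it is active, NF-κB drives cytokine genes and a small set of miRNAs. A miRNA is cut from a hairpin precursor, is loaded into Argonaute and pairs with target mRNAs mainly through its seed (bases 2 to 8), so that miRNAs with the same seed share many targets. In the cortex, miR-124, miR-128 and miR-9 are abundant in neurons or their precursors, while miR-146a and miR-155 are among the miRNAs that NF-κB induces.

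The mature miRNAs of the precursors that the results turn on are shown 5′ to 3′, with the seed in capitals, from RefSeq (GRCm38.p6). The leading group is the miR-125 seed family, whose members mmu-mir-125a, mmu-mir-125b-2 and mmu-mir-351 all passed the interaction test and carry the same 7-base seed.
miR-125b-5p: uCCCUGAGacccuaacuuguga
miR-125a-5p: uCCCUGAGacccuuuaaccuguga
miR-351-5p: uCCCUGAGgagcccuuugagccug
The other called precursors with an entry carry seeds unlike that of miR-125.
miR-744-5p: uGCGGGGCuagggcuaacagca
miR-344d-3p: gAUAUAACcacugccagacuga
miR-3087-5p: cAGGGCAGggcaagaguugag
miR-3087-3p: uAACUCACugucauguccuca
Among precursors that did not pass, miR-96 and miR-182 stand for the miR-183 cluster, and miR-384-5p has the seed of miR-30a-5p, miR-30c-5p and miR-30e-5p.
miR-96-5p: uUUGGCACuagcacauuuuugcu
miR-182-5p: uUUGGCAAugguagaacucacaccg
miR-384-5p: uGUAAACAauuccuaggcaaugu
The sequences of mir-6952 and mir-146a are not shown.

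In the interaction test (limma on the deposited values, Benjamini-Hochberg adjustment over all precursors, threshold 0.05), 7 of 589 precursors were called, or 1.19%. The interaction difference was positive in 3 of these (0.509%, mir-6952, mir-3087 and mir-344d-3) and negative in 4 (0.679%, mir-125b-2, mir-744, mir-125a and mir-351). The lower calls were thus mostly the miR-125 family, and among the higher calls mir-6952 and mir-3087 were at or near the lowest values of their libraries. Over the 324 precursors above 0 in any library the calls were 2.16%. Without the adjustment, 74 precursors had a p under 0.05 (12.6%), 40 with a positive (6.79%) and 34 with a negative difference (5.77%), which is 22.8% of the 324 precursors above 0. The split of the calls by direction moved with the scale: with values centred on miR-181a and miR-181b it was 3 higher and 9 lower, and with ranks within each library 5 higher and 2 lower. The 12 calls after centring held 4 of the 7 (not mir-125a, mir-3087 and mir-6952), and the calls from ranks held 2 of the 7 (mir-3087 and mir-6952). Centring on miR-181a and miR-181b lowered every interaction difference by the same amount, as a shift of -1.03. The deposited values are a compressed score without a unit, with 134.8 as the highest value of every library, so that differences are given in those units and not as folds. Precursors at the same rank in different libraries had the same value at all 170 ranks that could be compared, so that a difference between libraries is a difference in rank place.

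mir-125b-2 (chr16:77646273-77646343, + strand, GRCm38) lies in an intron of the non-coding host gene Mir99ahg. miR-125b is the mammalian counterpart of worm lin-4 and is abundant in brain. mir-125b-2 had values of 111.3, 110.4 and 110.4 in WT and 115.5 in each of the 3 WT + EtOH libraries. In TLR4-KO it was at 115.5, 114.9 and 114.9, and in TLR4-KO + EtOH at 115.5, 115.5 and 114.9. The 3 WT libraries were below all 9 others, and those 9 lay within 1 step of the shared set of levels. The ethanol difference was 4.77 (SE 0.285) in WT and 0.21 (SE 0.285) in TLR4-KO, and the interaction difference was -4.56 (SE 0.403, adjusted p = 0.00073, limma). In ranks from the top of the library, mir-125b-2 was 5th or 6th in WT and 3rd or 4th elsewhere. With ranks in place of values the interaction was -2.33 rank places and was not called (adjusted p = 0.614, limma).

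mir-125a (chr17:17830812-17830879, + strand) lies in an exon of Spaca6, and its mature miRNA shares the seed of miR-125b. It was at 109.3, 111.3 and 111.3 in WT and at 114.9 in each WT + EtOH library. TLR4-KO had 114.9, 115.5 and 115.5, and TLR4-KO + EtOH 114.9, 114.9 and 115.5. As for mir-125b-2, the WT libraries were the 3 lowest of the 12 and the groups other than WT overlapped. The genotypes differed by -4.43 in their ethanol difference (SE 0.702, adjusted p = 0.028, limma), made of an ethanol difference of 4.22 in WT and of -0.21 in TLR4-KO.

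mir-351 (chrX:53053255-53053353, - strand) encodes the rodent member of the family and lay lower, with ranks of 56 to 81. Its values were 58.8, 55.1 and 53.9 in WT and 64.6, 62.3 and 64.6 in WT + EtOH. They were 65.1, 63.0 and 65.6 in TLR4-KO and 63.0, 62.3 and 62.3 in TLR4-KO + EtOH. WT was again below the other 9 libraries, with a gap (58.8 to 62.3) that exceeded the spread within any of the other groups but not that within WT. Its interaction difference of -9.93 (SE 1.80, adjusted p = 0.0416, limma) was the called value nearest to the threshold.

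The fourth member, mir-125b-1, makes the same mature miR-125b-5p as mir-125b-2, so that the split of reads between these copies is uncertain. It was at 106.4, 106.4 and 102.3 in WT, 101.4, 109.3 and 109.3 in WT + EtOH, 110.4, 109.3 and 109.3 in TLR4-KO, and 107.8, 109.3 and 109.3 in TLR4-KO + EtOH. WT overlapped WT + EtOH, whose first library was the lowest of all 12. The interaction difference was -2.53 with a 95% interval of -9.40 to 4.33 (adjusted p = 1, limma), which contains the value of mir-125b-2. In the 6 libraries with at least 260 precursors above 0, described further on, the difference of mir-125b-1 was 1.02. Over the 4 members, 3 were called, against 1.19% of all precursors and 2.16% of the 324 above 0 in any library. All 4 had a negative difference over the 12 libraries, with a median of -4.50 against 0.34 over those 324 precursors. The list was chosen with earlier results of these data known, and mir-125b-1 and mir-125b-2 are not separate members at the level of the mature miRNA. The share of calls is therefore a description and not a test of the family.

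mir-744 (chr11:65734733-65734832, - strand, in an intron of the kinase gene Map2k4) was the called precursor in which the ethanol differences had opposite signs in the genotypes and were both well away from 0. It was at 75.6, 76.0 and 75.6 in WT (mean 75.7 ± 0.238, SD, n = 3) and at 80.6, 81.6 and 85.2 in WT + EtOH (82.5 ± 2.38). In TLR4-KO it was at 87.7, 84.6 and 84.6 (85.6 ± 1.80) and in TLR4-KO + EtOH at 79.9, 79.9 and 81.6 (80.4 ± 0.995). WT lay below all other libraries, and TLR4-KO lay above all TLR4-KO + EtOH libraries but overlapped WT + EtOH. The ethanol difference was 6.73 in WT (SE 1.26, adjusted p = 0.0407) and -5.20 in TLR4-KO (SE 1.26, adjusted p = 0.228), and their difference was -11.94 (SE 1.79, adjusted p = 0.0258, limma).

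The 3 precursors with a positive call were low in the table. mir-6952 (chr15:76064828-76064888, - strand, in an intron of the polarity gene Scrib) was at 4.20, 4.23 and 5.23 in WT and was listed at 0 in the other 9 libraries. In WT replicate 1, 29 precursors had this value and 1 lay between it and 0. In replicate 2 it was at the lowest value above 0, held by 15 precursors, and in replicate 3 its value was held by 25. Its interaction difference was 4.56 (SE 0.331, adjusted p = 0.000305, limma), all of it from WT, since the ethanol difference in TLR4-KO was 0. The 9 libraries at 0 had no spread, so that the spread of mir-6952 came from the 3 WT values alone. Its p therefore does not measure the spread between pools of the other groups. mir-6952 thus had the smallest p of the interaction at values next to the floor of the WT libraries. With quantile normalization the difference was 2.39 (adjusted p = 0.00156), and centred on miR-181a and miR-181b it was 3.52 and was not called (adjusted p = 0.258, limma).

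mir-3087 (chr2:25442779-25442834, + strand, in an intron of the lipid transporter gene Abca2) was listed at 0 in 9 libraries and was above 0 in TLR4-KO + EtOH only, at 4.08, 5.26 and 7.29. Each of these was the lowest value above 0 of its library, held by 5, 4 and 3 precursors. In the interaction its difference was 5.54 (SE 0.920, adjusted p = 0.028, limma), and with quantile normalization it was 3.27 and was not called (adjusted p = 0.145, limma). The spread of mir-3087 came from the TLR4-KO + EtOH values alone, so that its p does not measure the spread between pools of the other groups.

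mir-344d-3 (chr7:61726249-61726328, - strand, in an intron of the lincRNA A230057D06Rik) belongs to the rodent miR-344 group. It was at 4.20, 4.23 and 5.23 in WT, at 2.72 in 1 WT + EtOH library and 0 in the others, and at 4.20 in 1 TLR4-KO library and 0 in the others. In TLR4-KO + EtOH it was at 19.4, 18.1 and 10.95, above the other 9 libraries. These were not the lowest levels of their libraries, with 66, 43 and 3 precursors between them and 0. The ethanol difference was 14.77 in TLR4-KO (SE 2.18, adjusted p = 0.0347) and -3.65 in WT (SE 2.18, adjusted p = 0.678), and the interaction difference was 18.42 (SE 3.08, adjusted p = 0.028, limma). The only other miR-344 precursor above 0, mir-344b, had a difference of 1.43 with a 95% interval of -31.8 to 34.6 (not called).

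**Figure D1:**
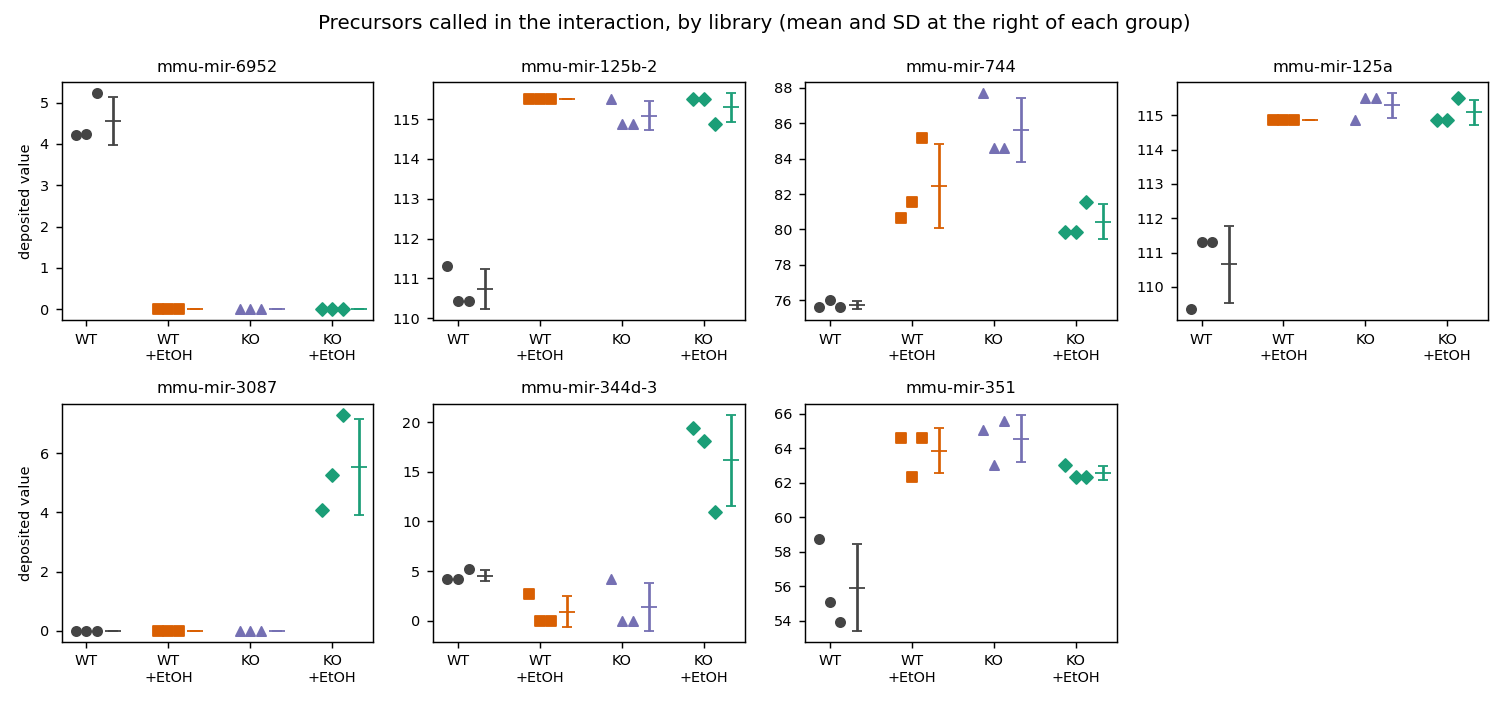
Deposited value (vertical axis, no unit, a separate range for each panel and not starting at 0) of the 7 called precursors in the 12 libraries, with 1 point per library in replicate order and the mean ± SD at the right of each group (KO is TLR4-KO). WT stood apart from the other 3 groups in mir-6952, mir-125b-2, mir-744, mir-125a and mir-351, and TLR4-KO + EtOH stood apart in mir-3087 and mir-344d-3.

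The position of the groups was counted over all precursors. The 3 WT libraries lay outside the range of the other 9 in 40 of 589 precursors (6.79%), 23 above and 17 below. For each of the other 3 groups the number was 4 (0.679%). Of the 7 called precursors, WT was the group outside in 5 and TLR4-KO + EtOH in 2, and of the 74 with an unadjusted p under 0.05, WT was outside in 31. For the same 5 called precursors, the genotype difference in water (TLR4-KO minus WT) was -4.56 for mir-6952, 4.36 for mir-125b-2, 9.90 for mir-744, 4.64 for mir-125a and 8.65 for mir-351. All 5 passed the test of that contrast, in which 15 of 589 were called (2.55%), and it shares the WT libraries with the interaction.

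The ethanol differences of the genotypes, which share no library, were then set side by side. In WT mice 10 precursors were called (1.7%) and in TLR4-KO mice 2 (0.34%, mir-3087 and mir-344d-3). Over the 324 precursors above 0 in any library, the median size of the difference was 3.90 in WT and 2.79 in TLR4-KO. The differences had opposite signs in 161 (49.7%) and the same sign in 119 (36.7%), and in the rest at least 1 was 0. As a description across precursors, which are not independent replicates, Pearson's r was -0.108 and Spearman's rho -0.125 (n = 324), and -0.222 and -0.190 over the 190 precursors above 0 in all libraries. Interaction differences ranged from -27.9 to 40.2, with quartiles of -4.89 and 5.55. The 95% interval of a difference reached 11.2 to each side at the median, so that for the median precursor an interaction of up to that size could not be told from 0.

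**Figure D2:**
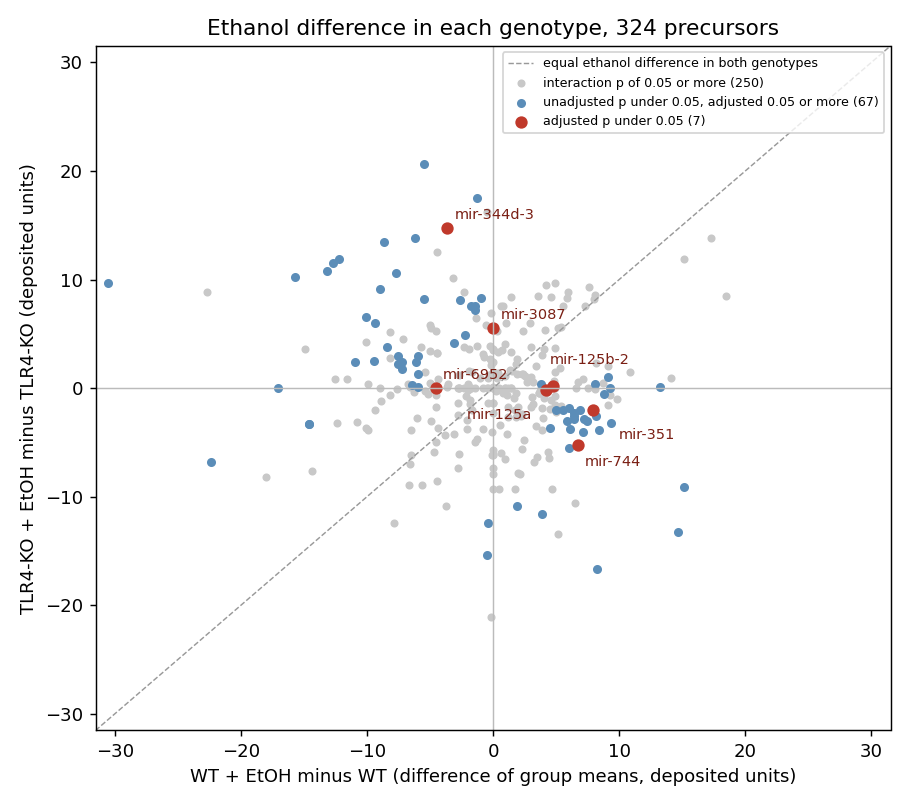
Ethanol difference in WT (horizontal axis) against that in TLR4-KO (vertical axis), in deposited units, with 1 point for each of 324 precursors. The called mir-125b-2, mir-125a, mir-351 and mir-744 lie right of the vertical line at 0 with TLR4-KO differences of 0.21 to -5.20, mir-6952 lies left of it, and mir-3087 and mir-344d-3 lie above the horizontal line.

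Just outside the threshold were mir-5122 and mir-150, both with an adjusted p of 0.0511. mir-5122 was listed at 0 in all WT and all TLR4-KO + EtOH libraries, and was at 8.39, 20.5 and 15.02 in WT + EtOH and 5.23, 15.3 and 19.2 in TLR4-KO. It had the most negative interaction difference of the table (-27.87, SE 5.33). The values thus separated WT and TLR4-KO + EtOH from the other groups without overlap.

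mir-150, whose mature miRNA is abundant in lymphocytes, was at 69.7, 68.7 and 69.7 in WT, 74.1, 76.8 and 79.4 in WT + EtOH, 81.1, 78.0 and 76.8 in TLR4-KO and 74.8, 76.0 and 76.0 in TLR4-KO + EtOH. WT was below the other 9 libraries, and TLR4-KO was above TLR4-KO + EtOH. The interaction difference was -10.43 (SE 2.03), and the ethanol difference in WT alone was called (7.41, adjusted p = 0.0444, limma). For the other leukocyte markers, mir-342 had -9.40 and mir-142a 2.78, with neither called, and mir-223 was listed at 0 in all 12 libraries.

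Several precursors that were not called had ethanol differences of opposite sign and similar size in the genotypes. mir-376a, of the imprinted Dlk1-Dio3 miRNA cluster, was at 32.3, 29.8 and 31.4 in WT and 34.8, 27.7 and 28.5 in TLR4-KO + EtOH. It was at 13.9, 21.5 and 21.5 in WT + EtOH and 10.9, 20.5 and 24.0 in TLR4-KO. The first pair of groups lay above the second pair in all libraries (interaction difference 24.05, SE 5.12, adjusted p = 0.0686, limma).

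mir-384, with the seed of the miR-30 family, was at 41.3, 41.8 and 37.0 in WT, 19.5, 24.0 and 29.6 in WT + EtOH, 30.3, 37.8 and 33.8 in TLR4-KO and 52.7, 41.0 and 38.8 in TLR4-KO + EtOH. WT + EtOH was the lowest group, and WT overlapped both TLR4-KO groups. For mir-384 the interaction difference was 25.90 (SE 5.72, adjusted p = 0.0713, limma).

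mir-505 was listed at 0 in WT and TLR4-KO + EtOH, and was at 8.39, 17.2 and 19.8 in WT + EtOH and 12.1, 15.3 and 0 in TLR4-KO, with a difference of -24.26 (SE 5.69, adjusted p = 0.0809, limma). mir-539, also of the Dlk1-Dio3 cluster, had the opposite pattern: it was listed at 0 in WT + EtOH and TLR4-KO, and was at 14.7, 0 and 11.2 in WT and 8.46, 14.5 and 17.5 in TLR4-KO + EtOH. Its difference was 22.12 (SE 5.07, adjusted p = 0.0764, limma). In each of these, 1 library overlapped the groups at 0.

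Other precursors differed in 1 TLR4-KO group. mir-3102 was listed at 0 in the 3 TLR4-KO libraries, against 14.7, 11.8 and 15.2 in WT, 5.63, 14.7 and 17.6 in WT + EtOH and 13.7, 18.1 and 20.8 in TLR4-KO + EtOH (18.80, SE 4.22, adjusted p = 0.0716, limma). mir-3083 was also listed at 0 in TLR4-KO, with 21.7, 17.2 and 17.6 in WT and 22.4, 21.97 and 17.5 in TLR4-KO + EtOH. WT + EtOH spread from 25.4 over 14.7 to 0, and the SE was 7.53 for a difference of 26.08 (adjusted p = 0.194, limma). mir-299a was the reverse case, with 11.1, 10.9 and 19.0 in TLR4-KO + EtOH against 24.5 to 30.2 in the other 9 libraries (-12.07, SE 3.21, adjusted p = 0.144, limma).

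mir-872 (in an intron of Ift74, a gene of intraflagellar transport) was highest in WT, at 32.5, 33.2 and 38.2, and lowest in TLR4-KO, at 4.20, 11.3 and 17.0, with both groups apart from the rest. WT + EtOH was at 22.7, 27.0 and 31.2 and TLR4-KO + EtOH at 22.4, 24.5 and 17.5 (18.34, SE 5.12, adjusted p = 0.172, limma). mir-326 and mir-714 were above 0 in 1 WT library and in the 3 TLR4-KO + EtOH libraries, where both had the same values of 4.54, 7.27 and 10.95. Their differences were 8.99 and 9.33, with adjusted p values of 0.118 and 0.144 (limma).

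A further set followed the miR-125 pattern without passing. mir-7224 was at 29.3, 27.0 and 30.1 in WT against 36.5 to 45.7 in the other 9 libraries (-13.06, SE 2.76, adjusted p = 0.0686, limma). mir-1981 had 34.9, 37.7 and 32.3 in WT and 39.4 to 47.4 elsewhere (-12.61, SE 2.74, adjusted p = 0.0713). mir-423 had 45.6, 44.6 and 47.1 in WT and 48.8 to 55.7 elsewhere (-10.08, SE 2.24, adjusted p = 0.0713). In all 3, WT was the lowest group and did not overlap the others. mir-666, of the Dlk1-Dio3 cluster, was at 37.4, 43.1 and 40.9 in WT and 43.1, 46.0 and 41.5 in TLR4-KO + EtOH, which overlapped, against 46.3 to 52.7 in the other 2 groups (-11.57, SE 2.73, adjusted p = 0.0809).

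**Figure D3:**
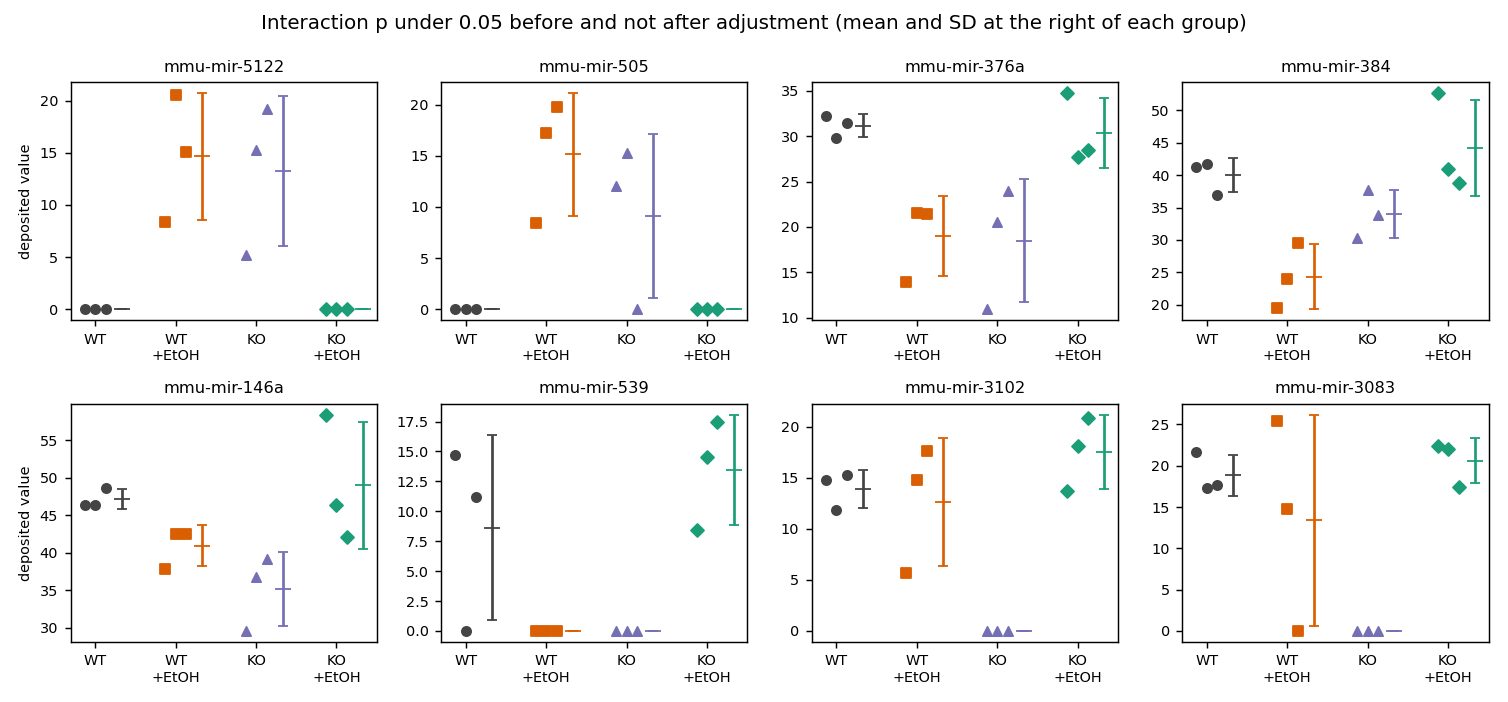
Deposited value (vertical axis, no unit, a separate range for each panel) in the 12 libraries of 8 precursors with an unadjusted interaction p under 0.05 and an adjusted p of 0.0511 to 0.194, with the mean ± SD at the right of each group (KO is TLR4-KO). mir-5122 and mir-505 were listed at 0 in WT and TLR4-KO + EtOH, mir-539 in WT + EtOH and TLR4-KO, and mir-3102 and mir-3083 in TLR4-KO.

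Of the miRNAs that respond to TLR4 and NF-κB (miR-146a, miR-146b, miR-155, miR-21a and the 3 copies of miR-9), 0 of 7 were called in the interaction and 2 had an unadjusted p under 0.05 (limma), against 1.19% and 12.6% of all precursors, or 22.8% unadjusted among those above 0. The difference was positive in 6 of 7, with a median of 6.08 against 0.34 over the 324 precursors above 0. mir-146a, whose miRNA represses the TLR4 adaptors IRAK1 and TRAF6, was at 46.4, 46.4 and 48.6 in WT and 37.8, 42.5 and 42.5 in WT + EtOH. It was at 29.6, 36.8 and 39.1 in TLR4-KO and 58.3, 46.4 and 42.1 in TLR4-KO + EtOH. WT did not overlap WT + EtOH, and TLR4-KO did not overlap TLR4-KO + EtOH, in opposite directions. For mir-146a the interaction difference was 20.01 with a 95% interval of 6.71 to 33.3 (adjusted p = 0.194, limma).

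mir-9-1 had 94.6, 93.7 and 93.4 in WT and 84.9 to 90.0 in the other 9 libraries (6.08, SE 2.50, adjusted p = 0.361, limma). The other copies of miR-9 had differences of 4.70 and 4.60, and reads of the 3 copies cannot be told apart by the mature sequence. mir-21a, a miRNA of reactive glia, had 49.5 to 50.6 in WT and 32.1 to 50.2 in the others (10.97, adjusted p = 0.578). mir-146b had 7.50 and mir-155 -7.32, with adjusted p values of 0.836 and 0.875. The CREB-regulated pair mir-132 and mir-212, which neuronal activity induces, had differences of 4.16 (95% interval -6.93 to 15.2) and -3.90 (-14.5 to 6.71).

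All 6 precursors of the miR-183 cluster and miR-200 family that were above 0, of 7 in the table, had a positive interaction difference, with a median of 16.3. Of the 324 precursors above 0, 169 had a positive difference. In the list, 0 passed the adjustment and 3 had an unadjusted p under 0.05 (limma), against 22.8% of the precursors above 0. Only mir-182 and mir-183 were above 0 in all 12 libraries, while mir-200a was above 0 in 6, mir-200b in 5, mir-96 in 3 and mir-141 in 2. The miR-183 cluster is known from sensory neurons and the miR-200 family from epithelia. mir-96 was at 12.1, 15.3 and 23.7 in WT and was listed at 0 in the other 9 libraries (17.03, SE 3.41, adjusted p = 0.0553). The ethanol difference of mir-96 in WT was called (-17.03, adjusted p = 0.0128, limma). In the test limited to precursors above 0 in at least 3 libraries, its interaction was called (adjusted p = 0.0406, limma). mir-96 passed that filter through the WT libraries alone, so that this call is not separate support for the interaction. mir-182 was at 90.3, 109.3 and 107.8 in WT, 91.7, 75.6 and 48.6 in WT + EtOH, 64.6, 71.5 and 62.0 in TLR4-KO and 81.6, 72.7 and 72.7 in TLR4-KO + EtOH. WT overlapped WT + EtOH by 1 library, and the 3 WT + EtOH libraries spread more widely than any other group. The difference of mir-182 was the most positive of the table at 40.16, with an SE of 14.3 and an adjusted p of 0.315 (limma). mir-183 had 31.54 (SE 13.9, adjusted p = 0.394) and mir-200b 15.55 (SE 6.71, adjusted p = 0.382).

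Markers of choroid plexus and ciliated cells were also highest in WT when summed. The summed value of the 11 markers ranged from 352 to 415 in the WT libraries. It ranged from 228 to 326 with ethanol in WT mice, and in TLR4-KO mice from 269 to 311 without and 275 to 296 with ethanol. WT thus did not overlap the other groups. Of the 11, 5 (the 3 precursors of the miR-183 cluster with mir-200a and mir-200b) are also members of the miR-183 and miR-200 list. These 5 summed to 207 to 266 in WT and 82.0 to 181 over the other groups. The 6 not shared summed to 144.1 to 149.1 in WT and 141.7 to 177 over the other groups, so that the excess of WT lay in the 5 shared members. The defining markers mir-449a and mir-449c were at 0 in all 12 libraries and mir-34b was at 0 in 10. The interaction difference of mir-204 was 0.39, that of mir-211 -1.13, that of mir-34b -7.96 and that of mir-34c 3.86, none of them called. The part of such cells in the values of the miR-183 cluster was not tested, and in pooled tissue fewer cells of a type and less RNA per cell cannot be told apart.

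The neuron markers were above 0, with no other tissue at hand to set them against: their summed value was 627 to 692 over all 12 libraries, and of 13 members mir-153 and mir-137 were at 0 in 4 libraries each. None of the 13 was called in the interaction, and 1 (mir-128-1) had an unadjusted p under 0.05, against 2.16% and 22.8% of the precursors above 0. mir-128-1 was at 65.6, 58.3 and 60.2 in WT and 67.7 to 72.7 in the others (-9.26, SE 2.71, adjusted p = 0.197, limma). Of the erythroid markers, mir-451a had 50.2, 50.2 and 46.3 in WT and 24.5 to 36.0 elsewhere. Its ethanol difference in WT was called (-14.57, adjusted p = 0.0346) and its interaction was not (11.32, SE 3.72, adjusted p = 0.263, limma). mir-451b, which overlaps mir-451a, had the same values. mir-486b went the other way, with an interaction difference of -10.77 (adjusted p = 0.266). The share of blood in the cortex samples was not tested. Summed, the 3 oligodendrocyte markers were at 29.2 to 36.5 in TLR4-KO and at least 40.4 in the other groups, with 0 called in the interaction. Of the 3, mir-219a-1 was at 0 in 11 libraries and mir-219a-2 in 7. Both were at 0 in all TLR4-KO and TLR4-KO + EtOH libraries, where the sum was thus the value of mir-338 alone. The 4 leukocyte markers summed to 143.3 to 162.9 in WT + EtOH and to at most 143.1 in the other groups. What set these sums apart was not tested.

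All 3 precursors of miR-26 had a positive difference and an unadjusted p under 0.05, with 0 called, against 22.8% unadjusted among the precursors above 0. With the number of precursors above 0 as a covariate all 3 were called (adjusted p = 0.00122 for mir-26b, 0.011 for mir-26a-1 and 0.00373 for mir-26a-2, limma). That covariate was added after seeing the data, and its fit called 58 of 589 precursors, against 7 without it. mir-26b was at 62.3, 62.3 and 62.0 in WT and 45.4 to 55.3 in the other 9 (13.34, SE 4.01, adjusted p = 0.205, limma). mir-26a-1 was at 115.5 in each WT library, which was the level of mir-125b-2 in WT + EtOH, and at 102.3 to 111.3 in the others (8.53, SE 3.30, adjusted p = 0.337). mir-26a-2 was at 114.9 in each WT library, the level of mir-125a in WT + EtOH, and had 8.94 (adjusted p = 0.351). The 2 copies of miR-26a thus held the same rank places in WT that mir-125b-2 and mir-125a held in WT + EtOH.

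let-7, whose members oppose LIN28 and mark differentiated cells, had 0 of 12 called and 1 (let-7b) with an unadjusted p under 0.05. Of the 324 precursors above 0 in any library, 2.16% were called and 22.8% had an unadjusted p under 0.05. The same shares apply to the families that follow. let-7b was at 84.6, 82.4 and 83.7 in WT and 86.9 to 98.3 elsewhere (-11.15, SE 3.37, adjusted p = 0.205, limma), against a median of -1.24 for let-7. miR-15 and miR-16, known as repressors of cell cycle genes, had 3 of 4 positive, 0 called and 2 with an unadjusted p under 0.05. mir-15a had 16.63 (adjusted p = 0.316) and mir-16-2 7.28 (adjusted p = 0.361). In the miR-30 family, 0 of 7 were called, and mir-30b (8.98) and mir-30f (7.29) had an unadjusted p under 0.05. The vascular markers mir-143 and mir-145a, which lie in 1 cluster and mark smooth muscle, had opposite signs at 6.72 (adjusted p = 0.201) and -7.67 (adjusted p = 0.361).

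The Dlk1-Dio3 cluster on chromosome 12 (chr12:109452823-110281097), whose miRNAs are expressed from the maternal allele and are prominent in neurons, held 51 precursors of the table, of which 41 were above 0. None was called, 8 had a positive and 4 a negative difference at an unadjusted p under 0.05, against 74 of the 324 precursors above 0 (22.8%), and the median was 0.38. Members of the cluster therefore had values on both sides of 0, from 24.05 in mir-376a to -18.6 at the other end. Of the precursors whose number has at least 4 digits, which were annotated late and are mostly rare, 63 of 228 were above 0. Of all 228, 2 (mir-6952 and mir-3087) were called, against 7 of 589 precursors (1.19%). Set against the 63 above 0, the share over all precursors above 0 was 7 of 324 (2.16%).

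**Figure D4:**
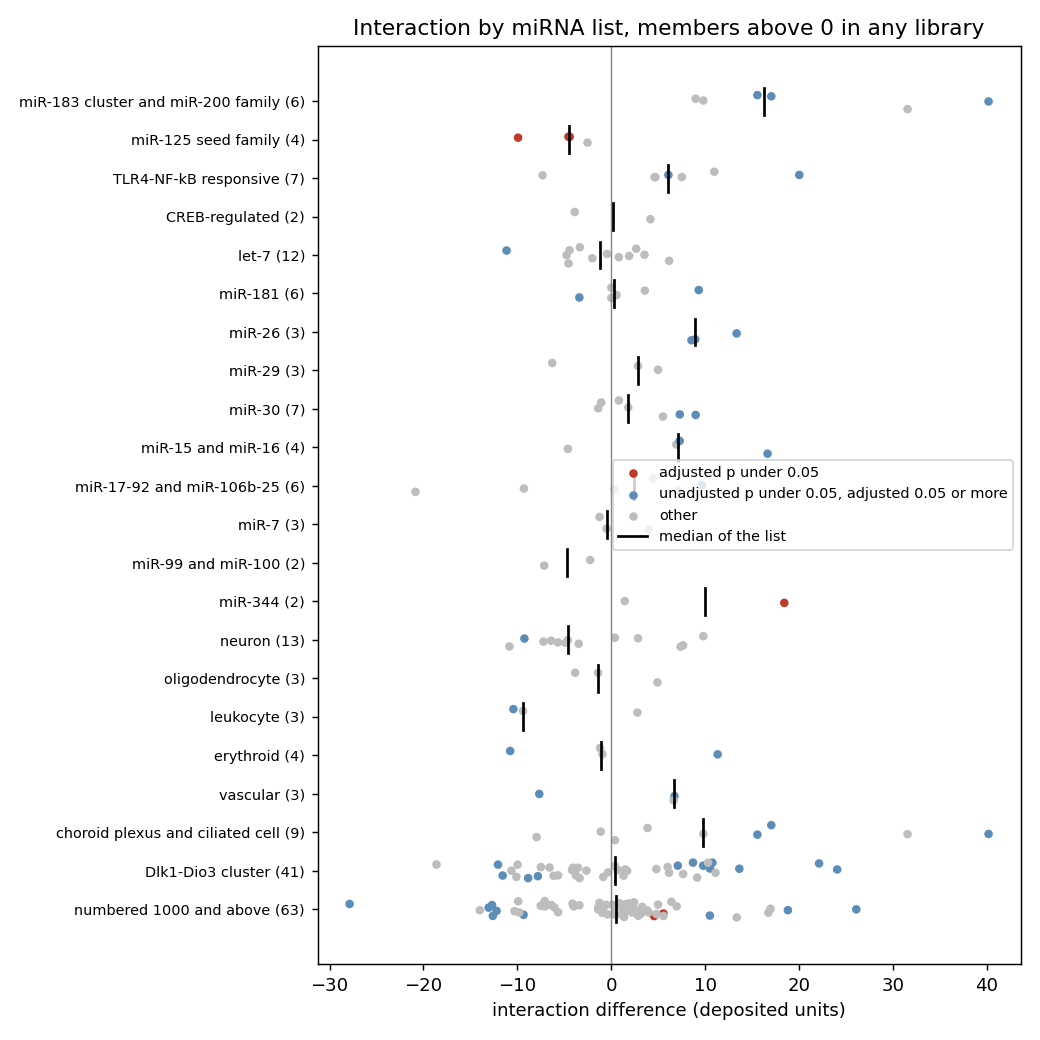
Interaction difference (horizontal axis, deposited units) of the members above 0 of each miRNA list, with their number in brackets, 1 point per precursor and a bar at the median of the list (vertical position within a list is scatter only). The called points are 3 of the 4 miR-125 seed members, mir-344d-3, mir-6952 and mir-3087, and the 6 members of the miR-183 and miR-200 list all lie right of 0.

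miR-181a, taken by the study as an internal control of its PCR, was at the same level in all 12 libraries for both copies. The level was 134.8 for mir-181a-1 and 124.04 for mir-181a-2, with an interaction difference of 0. mir-181a-1 held rank 1 and mir-181a-2 rank 2 in every library, and each rank has 1 fixed value. The equal levels thus follow from the ranks and do not show that the amount of miR-181a was stable. The copies of miR-181b had 3.57 (mir-181b-1, SE 2.63, adjusted p = 0.89) and 0.56 (mir-181b-2, SE 1.57, adjusted p = 1, limma), and the sign of mir-181b-2 depended on the libraries and the scale. mir-181c had -3.41 and mir-181d 9.31, with adjusted p values of 0.361 and 0.337.

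The libraries differed in how many precursors were above 0. The number was 270, 260 and 260 in WT, 270, 233 and 229 in WT + EtOH, 262, 229 and 216 in TLR4-KO and 262, 247 and 236 in TLR4-KO + EtOH. All WT libraries and replicate 1 of each other group thus had at least 260, and the other 6 libraries had at most 247. The lowest value above 0 moved with this number, from 1.25 in WT replicate 1 to 14.1 in TLR4-KO replicate 3. In the 6 libraries with at least 260, the interaction difference was -4.77 for mir-125b-2, -12.77 for mir-744, -4.22 for mir-125a, -10.74 for mir-351, 4.56 for mir-6952, 4.08 for mir-3087 and 17.07 for mir-344d-3. All 7 had the same sign as over the 12 libraries, and the 3 groups other than WT have 1 library each there. The 6 libraries are part of the 12 and hold all WT libraries, so that the same sign is not separate support. The difference of mir-6952, at 0 outside WT, could not change. The spread in these 6 libraries comes from WT alone, and mir-3087 was at 0 in all WT libraries. Calls gained or lost among the 7 in that fit are therefore not read. With the number of precursors above 0 as a covariate in all 12 libraries, all 7 were called and the count of calls was 58, with 36 higher and 22 lower.

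**Figure D5:**
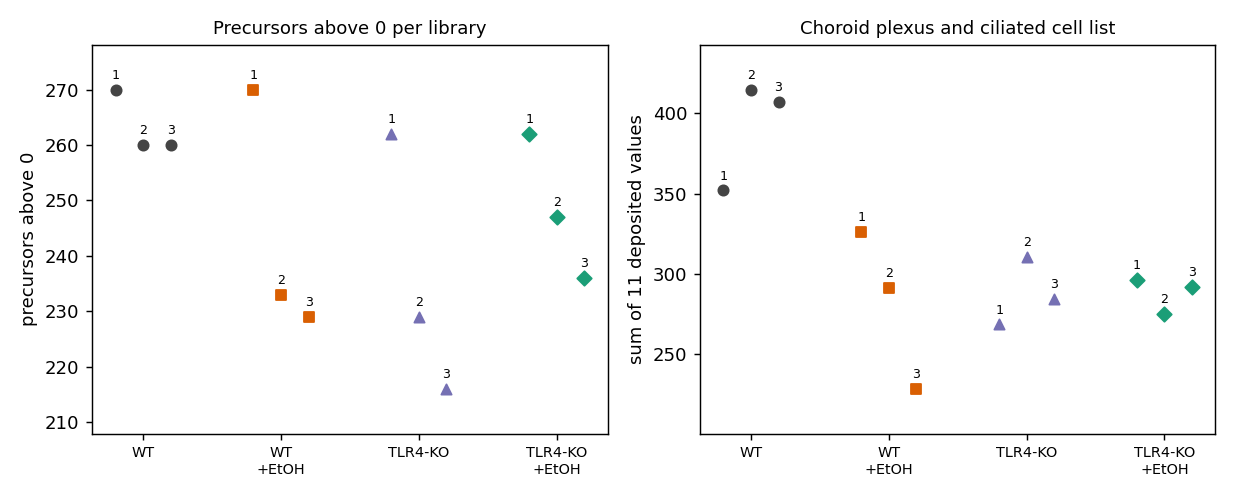
Number of precursors above 0 (left, of 589) and summed deposited value of the 11 choroid plexus and ciliated cell markers (right) in each library, with the replicate number above the point (the vertical axes do not start at 0). WT and replicate 1 of each other group have 260 to 270 precursors above 0, and the marker sum is 352 to 415 in WT and at most 326 elsewhere. The excess of WT lies in the 5 markers shared with the miR-183 and miR-200 list. The 6 others (not drawn apart) sum to 144.1 to 149.1 in WT and 141.7 to 177 elsewhere.

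The calls depended on single libraries. When each library was left out in turn, the number of calls ran from 2 (without TLR4-KO + EtOH replicate 2) to 15 (without WT + EtOH replicate 1). mir-6952 and mir-125b-2 were called in all 12 of these fits, mir-744 in 8, mir-125a in 6, mir-3087 and mir-344d-3 in 3 each and mir-351 in 1, with no change of sign. mir-6952 was at 0 in every library outside WT, so that leaving out 1 of those could not change its difference. When the test was limited to precursors above 0 in at least 3 libraries, mir-744, mir-344d-3 and mir-351 were called while mir-6952 (adjusted p = 0.148), mir-125b-2 (0.149), mir-125a (0.157) and mir-3087 (0.128) were not. In limma the spread of each precursor is taken in part from all precursors of the fit, and that filter left out those at 0 in all libraries, among others.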

How the data were processed

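Small RNA of pooled mouse cortex was sequenced in 12 libraries, 3 per group. By the study's methods and the submitters' processing notes, the authors used Cutadapt for adapter trimming and Bowtie2 2.2.5 with TopHat for mapping, and then counted reads per precursor. The methods name the trimmed mean of M values as the normalization, and the notes name GRCm38. The deposited table holds a score that the authors derived, with 589 precursors and 0 kept at 0. The libraries take their values by rank from 1 shared set of levels, as after quantile normalization of a scaled log value, a step the methods do not name. It holds no counts, so the depth of each library is unknown, no counting interval is given and the count test of the study's methods (edgeR) was not run.

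From the deposited scores, 1 mean per group was fitted to all 12 libraries with limma 3.58.1 in R 4.3.3 (eBayes with default settings, no covariate, no pseudocount). Adjustment was by Benjamini-Hochberg over 589 precursors with a threshold of 0.05, and tests were two-sided. The total degrees of freedom were 8.31. The 265 precursors at 0 in all libraries stayed in the fit, and 324 were above 0 in at least 1. The script was tested on simulated data. Tables and figures were made with Python 3.11.15, pandas 2.3.3, numpy 2.4.6 and matplotlib 3.10.9. Positions and host genes came from GENCODE M21 (GRCm38), which matched 556 of 589 precursors, and mature sequences from RefSeq, which matched 28 of the 31 precursors looked up.

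Named precursors were those called, those with the smallest interaction p up to 25 in all, up to 4 of each list by p, those called for an ethanol difference and the copies of miR-181a and miR-181b. Members, lists and tests were chosen with earlier results of these data known. mir-155, mir-146b, mir-9-3, mir-204, mir-211, mir-34b, mir-34c, mir-344b, mir-125b-1 and mir-212 are named beyond that rule to complete lists, as are markers for their number of libraries at 0. Alternatives changed the scale, the filter on low values, the variance model, the replicate block and the libraries. A covariate for the number of precursors above 0 and a fit to the 6 libraries with at least 260 were added after seeing the data.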

Additional observations from a re-analysis of the deposited data

Results flagged for a closer look

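The 7 precursors called in the interaction are listed because the test of the difference itself found that their ethanol differences differed between WT and TLR4-KO mice (limma, adjusted over 589 precursors). The interaction difference was 4.56 for mir-6952, -4.56 for mir-125b-2, -11.94 for mir-744, -4.43 for mir-125a, 5.54 for mir-3087, 18.42 for mir-344d-3 and -9.93 for mir-351. Groups of 3 libraries are too small for a check of single outlying samples, and none was made.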

How the results depend on the processing

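The 7 interaction calls (3 higher, 4 lower) and the 10 and 2 calls for ethanol in WT and in TLR4-KO moved by at most 1.5 times when the values were centred on the median, when copies were merged and when the variance was modelled in other ways. Interaction calls numbered 12 (9 lower, 4 of the 7 among them) when centred on miR-181a and miR-181b, 5 higher and 2 lower with ranks (2 of the 7 among them), 15 (7 higher, 8 lower) with log2(value + 1), and 13 (6 higher, 7 lower) above 0 in at least 3 libraries. With the number of precursors above 0 as a covariate there were 58 (36 higher, 22 lower), and in the 6 libraries with at least 260 above 0 there were 67 (30 higher, 37 lower), where 2 residual degrees of freedom come from WT alone and the lone libraries are assumed to vary like WT. Above 0 in all 12 libraries there were 7, of which 2 (mir-351 and mir-744) are among the 7 of the reported test. Ethanol calls in WT numbered 21 above 0 in at least 3 libraries, 17 above 0 in all 12, 59 with the covariate and 45 in the 6 libraries. Ethanol calls in TLR4-KO numbered 0 with quantile normalization (36 at an unadjusted p under 0.05), 0 when centred on miR-181a and miR-181b (50 unadjusted), 0 above 0 in all 12 (22 unadjusted), 4 with the covariate and 51 in the 6 libraries (limma throughout). Filters test fewer precursors and also change the spread that limma shares across the precursors of a fit. For mir-181c, the SE of the interaction was 1.40 in the reported test and 2.10 above 0 in at least 3 libraries. The cause of the changes in the calls was not tested.

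Leaving out 1 library gave 2 to 15 interaction calls (1 to 6 higher, 1 to 9 lower), 4 to 18 ethanol calls in WT and 0 to 4 in TLR4-KO. The library left out is named here by its group and number (WT 2 is replicate 2 of WT). The interaction count was 15 without WT + EtOH 1, 4 without WT 2, without WT 3, without WT + EtOH 2 and without TLR4-KO 2, 3 without WT + EtOH 3 and without TLR4-KO + EtOH 1, and 2 without TLR4-KO + EtOH 2. In WT, ethanol calls were 18 without TLR4-KO 1, 4 without WT 2, 5 without WT 3 and without TLR4-KO + EtOH 2, and 6 without WT + EtOH 2, without WT + EtOH 3 and without TLR4-KO 2. In TLR4-KO they were 4 without WT + EtOH 3, 0 without TLR4-KO + EtOH 2 (34 unadjusted), and 1 without WT 1, without WT 2, without WT 3, without WT + EtOH 2 and without TLR4-KO + EtOH 1. With 2 libraries per group, interaction calls were 7 without replicate 1 of every group, 0 without replicate 2 (36 unadjusted) and 1 without replicate 3 (1 higher, 0 lower, 59 unadjusted). Ethanol calls were then 26, 0 (29 unadjusted) and 4 in WT, and 0 in TLR4-KO each time (32, 24 and 37 unadjusted).

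Replicate numbers are shared by the groups, but libraries with the same number did not meet the criterion for pairing, which asks for a correlation of their deviations over 0.1 in every pair. It was over 0.1 in 4 of 18 pairs and above 0 in 15 (-0.0776 to 0.24, median 0.0577, against a median of -0.0367 for other numbers), highest between replicate 1 of WT + EtOH and of TLR4-KO, and 5 of 12 libraries correlated best with their own number. With a replicate block, 3 interaction calls remained (1 higher, 2 lower: mir-6952, mir-125b-2 and mir-125a), the other 4 had adjusted p values of 0.0517 (mir-344d-3), 0.0565 (mir-351) and 0.0573 (mir-744 and mir-3087, limma), and the ethanol counts were 13 in WT and 3 in TLR4-KO.

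Of 1896 refits of single named precursors under these settings, 38 changed sign, in 10 precursors, none of them called in the interaction. Without replicate 1 of every group, mir-181b-1 went to -1.65, mir-181b-2 to -2.35, mir-34c to -5.09 and mir-132 to -3.07. In the 6 libraries, mir-181c went to 0.39, mir-125b-1 to 1.02, mir-142a to -9.48, mir-211 to 6.63, mir-344b to -37.04 and mir-204 to -3.58. With the covariate, mir-211 went to 5.24, mir-344b to -12.42 and mir-204 to -0.32. Centred on miR-181a and miR-181b, mir-181b-2 went to -0.47 and mir-204 to -0.64. Without replicate 2 of every group mir-142a was at -3.83 and mir-344b at -15.91, and without replicate 3 of every group mir-211 was at 1.57 and mir-204 at -2.40. Over the fits without 1 library, mir-181b-2 ran from -0.32 to 1.26 (below 0 without replicate 1 of any group), mir-142a from -3.77 to 9.80, mir-211 from -4.05 to 0.87, mir-344b from -8.01 to 10.32 and mir-204 from -2.10 to 3.55. Depth is unknown, and precursors near the lowest level of a library are limited by it.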
